A study of Mus musculus with 6 samples.

Results

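The S and M phase cyclins, their cyclin-dependent kinases and the Cdc25 phosphatases were examined as a set of 10 genes (Ccna2, Ccnb1, Ccnb2, Ccne1, Ccne2, Cdk1, Cdk2, Cdc25a, Cdc25b and Cdc25c) among 55471 gene IDs. Members were taken by gene name from the deposited table, and each name matched a single row. RNA came from sorted mouse haematopoietic stem cells (Lin- Kit+ Sca1+ CD48- CD150+) of the genotype labelled ETV6-RUNX1, a leukaemia fusion gene, in all 6 libraries. Uninduced cells (n = 3 libraries) came from control mice titled as without doxycycline, and induced cells (n = 3 libraries) from mice given doxycycline in food for 2 weeks. No library had doxycycline without the fusion, so induction and doxycycline cannot be told apart. The labels give neither the age of the mice nor the promoter of the transgene. They do not say whether each library is a separate animal or pool, so p-values measure only the spread between these libraries.

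Cyclins are regulatory subunits that switch on cyclin-dependent kinases, and their abundance rises and falls with the cell cycle. Cyclin E with Cdk2 acts at the start of DNA synthesis, cyclin A with Cdk2 and then Cdk1 acts through S phase, and cyclin B with Cdk1 drives entry into mitosis. Cdc25 phosphatases remove inhibitory phosphates that the kinases Wee1 and Myt1 place on Cdks. Most adult haematopoietic stem cells are quiescent, and transcripts of mitotic cyclins are scarce in quiescent cells. Many of these genes are transcribed periodically, through E2F sites, CCAAT boxes bound by NF-Y, and CHR elements (cell cycle genes homology regions) bound by the MuvB complex.

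Upstream sequences of 5 members are shown because the set holds genes that fell and genes that did not pass the test, and these elements are the ones known for periodic transcription. Each is the 250 bases before the RefSeq start on build GRCm38.p6, written 5′ to 3′ on the gene's strand, with every match in capitals. Matches were sought on both strands for TTTGAA, the only form of the CHR element searched, and for CCAAT. The E2F match was the sequence TTCCCGC, or in its place the sequence TTCGCGC, or in its place the sequence TTGGCGC, or in its place the sequence TTGCCGC. The stretches are chr13:100786487-100786736 (minus strand) for Ccnb1, chr9:70421555-70421804 (minus) for Ccnb2, chr10:69352913-69353162 (minus) for Cdk1, chr10:128705052-128705301 (minus) for Cdk2 and chr2:131186698-131186947 (plus) for Cdc25b.
Ccnb1: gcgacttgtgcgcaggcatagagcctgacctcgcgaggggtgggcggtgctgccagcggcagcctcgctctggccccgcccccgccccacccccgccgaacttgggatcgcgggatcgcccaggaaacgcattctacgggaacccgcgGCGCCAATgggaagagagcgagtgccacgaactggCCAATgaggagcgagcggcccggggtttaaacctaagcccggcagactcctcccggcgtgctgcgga
Ccnb2: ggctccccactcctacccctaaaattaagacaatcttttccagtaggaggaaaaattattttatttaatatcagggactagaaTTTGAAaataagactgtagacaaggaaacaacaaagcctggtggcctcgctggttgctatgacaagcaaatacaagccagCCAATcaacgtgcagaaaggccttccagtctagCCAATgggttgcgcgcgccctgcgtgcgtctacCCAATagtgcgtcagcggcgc
Cdk1: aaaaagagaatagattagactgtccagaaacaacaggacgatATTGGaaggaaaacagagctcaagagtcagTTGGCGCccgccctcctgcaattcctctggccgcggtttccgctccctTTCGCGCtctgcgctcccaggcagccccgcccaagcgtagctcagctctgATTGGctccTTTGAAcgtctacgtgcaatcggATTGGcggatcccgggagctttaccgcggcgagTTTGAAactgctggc
Cdk2: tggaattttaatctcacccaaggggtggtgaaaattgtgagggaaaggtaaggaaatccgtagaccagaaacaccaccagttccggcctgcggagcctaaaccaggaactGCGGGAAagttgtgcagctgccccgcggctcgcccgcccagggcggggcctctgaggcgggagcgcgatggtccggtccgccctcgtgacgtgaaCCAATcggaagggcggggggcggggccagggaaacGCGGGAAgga
Cdc25b: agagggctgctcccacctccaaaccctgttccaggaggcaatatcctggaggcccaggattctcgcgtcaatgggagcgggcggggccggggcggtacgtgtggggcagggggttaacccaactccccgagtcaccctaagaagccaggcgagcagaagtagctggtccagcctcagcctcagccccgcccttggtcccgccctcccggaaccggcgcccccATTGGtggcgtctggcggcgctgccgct

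Over the full table window of 250 bases before and 50 after the start, 7 members were searched. A CCAAT match was found in 6 of the 7 (Ccnb1, Ccnb2, Cdk1, Cdk2, Cdc25a, Cdc25b), an E2F form in 4 (Ccnb1, Cdk1, Cdk2, Cdc25a) and TTTGAA in 2 (Ccnb2, Cdk1). Over all 32851 RefSeq promoters of that length, 37.4% held CCAAT, 9.57% an E2F form and 17.9% TTTGAA. Ccnb2 had 3 CCAAT matches, first bases 87, 54 and 21 before the start, and Cdk1 had 3 on the opposite strand at 208, 80 and 48. Only 3.37% of all promoters held 3 or more. TTTGAA lay 71 and 15 bases before the start in Cdk1, and 167 before and at base 5 after it in Ccnb2. In Ccnb1 the E2F match overlaps the first CCAAT match. The GENCODE start lies inside the printed stretch for Ccnb1 and Cdk1, so the CCAAT match 67 bases before the RefSeq start of Ccnb1 and the TTTGAA match 15 bases before that of Cdk1 lie downstream of it. The remaining E2F match of Cdk2, at base 41, lies beyond the printed bases. Ccne1 had no match. These matches describe letters in the window and show neither binding nor a cause.

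Values are TPM, in which abundance is corrected for transcript length and scaled so that each column has nearly the same total. TPM keeps no depth, so depth is unknown and a gene given as 0 is only listed at 0. Nuclear protein-coding genes took 26.6 to 32.9% of TPM in uninduced and 20.5 to 23.2% in induced libraries. Genes of miRNA type took 19.8, 18.6 and 30.1% in uninduced and 35.02, 41.2 and 33.9% in induced libraries, with uninduced replicate 3 near the induced ones, and the part of this composition in the members' values was not tested beyond the scalings. The median log2 change of the 13470 genes tested was -0.35, and after median-of-ratios scaling, which sets the typical gene equal between libraries, it was -0.0029. Values after that scaling are given where they change a member's result or a list's direction. Of 12 stem cell markers 12 were above 0 in some library, with summed levels of 496 to 673 TPM in uninduced and 585 to 627 TPM in induced libraries. Among the genes of the sort, Ly6a (Sca-1) rose (log2 change 1.33, adjusted p 0.00694), Kit fell (-0.81, adjusted p 0.0354, and 0.220 after scaling), Slamf1 (CD150) did not pass (-0.78, adjusted p 0.155), and Cd48 was at 0 to 3.02 TPM. The 8 erythroid markers summed to 54.6 to 60.6 TPM in uninduced and 402 to 467 TPM in induced libraries. Most of that sum came from the globin genes Hbb-bs, Hbb-bt, Hba-a1 and Hba-a2, which rose (adjusted p 0.000198 to 0.000834), as did Alas2 (0.00415). The erythropoietin receptor gene Epor was lower in value without passing (3.42, 2.10 and 4.57 against 0, 0 and 1.45 TPM, adjusted p 0.0638), and the erythroid factor Klf1 did not pass (adjusted p 0.260). The summed granulocyte and monocyte markers overlapped (236 to 284 and 234 to 285 TPM), while Prtn3 among them rose (adjusted p 0.0114). Mpo (log2 change -1.10, adjusted p 0.173), Elane (-1.15, 0.155), S100a8 (-0.56, 0.250) and S100a9 (-0.67, 0.0916) were lower in value and did not pass. Lyz2 was higher in value without passing (0.44, adjusted p 0.163), and it rose after scaling (0.84, adjusted p 0.0136). The summed megakaryocyte markers also overlapped (82.2 to 116 and 106 to 114 TPM), while Ppbp (adjusted p 0.00343) and Pf4 (0.0253) rose and Gp9 fell (0.0187, and 0.0617 after scaling). Cd79a, Ms4a1, Ebf1, Pax5, Cd3d, Cd3e, Cd3g and Cd8a were listed at 0 in all 6 libraries. The B cell gene Cd79b was at 4.21 to 9.86 TPM in uninduced and 3.11 to 3.85 TPM in induced libraries without passing (adjusted p 0.197), and the NK cell gene Nkg7 was at 5.84 to 15.8 TPM in uninduced and listed at 0 in induced libraries, and it fell on both scales (adjusted p 0.00378, and 0.00587 after scaling). Ppbp and Nkg7 each reached the expression filter, a mean of 1 TPM, only through the group where they were high. The endothelial gene Pecam1, which stem cells also express, was at 13.7 to 23.5 TPM in uninduced and 28.5 to 37.9 TPM in induced libraries (adjusted p 0.0661, and 0.0325 after scaling). The part of other cells in the results below was not tested. In sorted bulk RNA, fewer cycling cells and less transcript per cell cannot be told apart.

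Of the 10 members, 9 reached a mean of 1 TPM and were tested, and Cdc25c did not. At a limma adjusted p under 0.05, 5 of the 9 fell in induced cells (Ccnb1, Ccna2, Ccnb2, Ccne1 and Cdc25a) and 0 rose, where 10.2% of all tested genes were called lower and 1.29% higher. After median-of-ratios scaling 4 of the 9 were called lower, with Cdc25a lost, where 3.21% of all genes were called lower and 2.84% higher. The median log2 change of the 9 was -1.86, and -1.65 after scaling. Ccnb1, Ccne1 and Ccne2 averaged under 1 TPM in induced libraries and reached the filter only through the uninduced group, so a difference was built into their passing. At a mean of at least 5 TPM neither Ccnb1 nor Ccne1 was tested. There 4 of 6 members were called (Ccna2, Ccnb2, Cdc25a and Cdk1), where 1465 of 8996 genes were called lower. These 4 averaged 12.1 to 19.1 TPM in uninduced and 2.06 to 3.69 TPM in induced libraries. They too reached that filter only through the uninduced group, so it is no check free of this limit. The size of a log2 change depended on the pseudocount, which is 1 TPM here. With pseudocounts of 0.1 and 5 TPM the change was -3.93 and -0.89 for Ccne1, -3.51 and -1.28 for Ccnb1, -3.93 and -0.77 for Ccne2 and -3.01 and -1.52 for Ccna2, and the 5 genes called were the same. In 7 of the 9 every induced library lay below every uninduced one, as in 28.2% of all tested genes. The count fell from 5 to 3 without uninduced replicate 2, with Ccne1 and Cdc25a lost, where 637 of 13384 genes were called lower. It fell to 3 without the expression filter, with Ccnb2 and Cdc25a lost, where 656 of 23013 genes were called lower.

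**Figure D1:**
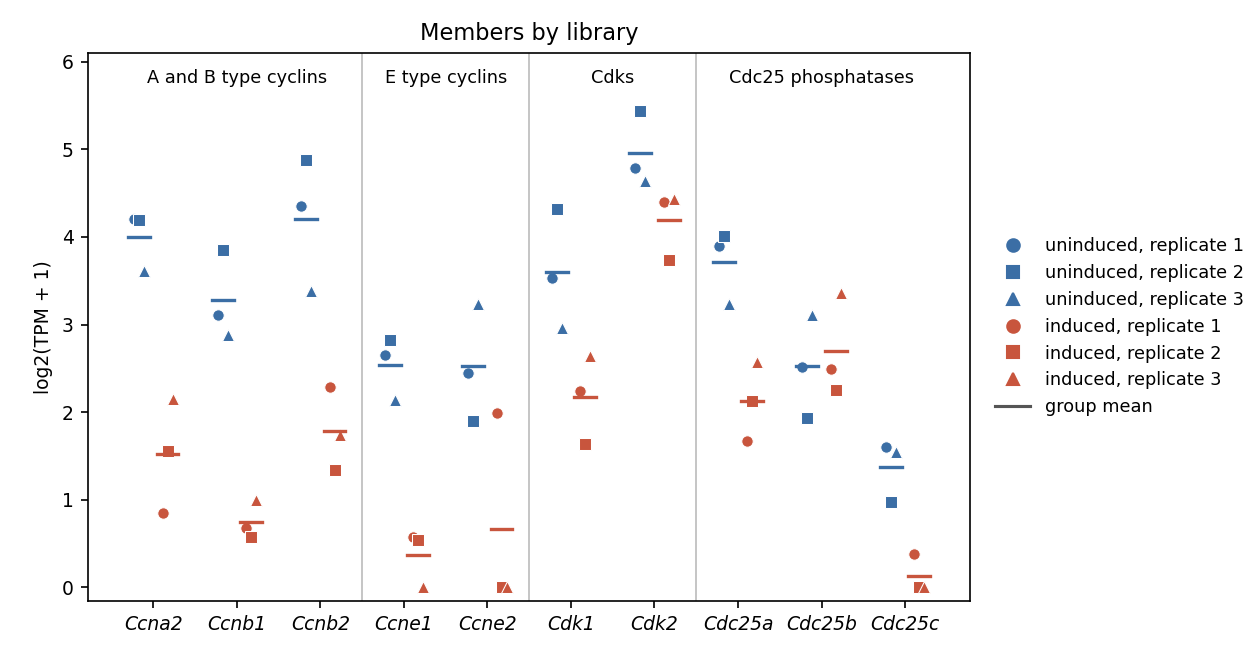
Level of each member in each library, as log2(TPM + 1), with uninduced libraries in blue and induced in red, a marker shape per replicate and a bar at the group mean. The groups are apart for Ccna2, Ccnb1, Ccnb2, Ccne1, Cdk1, Cdk2, Cdc25a and Cdc25c, and overlap for Ccne2 and Cdc25b.

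Among the A and B type cyclins, Ccna2 (ENSMUSG00000027715, chr3:36564865-36572150, minus strand), which encodes cyclin A2, was at 17.4, 17.2 and 11.2 TPM in uninduced and 0.806, 1.95 and 3.43 TPM in induced libraries. The groups were well apart, with the highest induced library under the lowest uninduced one. Mean TPM was 15.3 ± 3.53 and 2.06 ± 1.31 (SD, n = 3 each), 7.43-fold lower in induced cells, and the log2 change was -2.48 (SE 0.39, adjusted p 0.00525). The call held under all 18 alternatives run, with adjusted p from 0.00488 to 0.0382. Ccna2 shares 510 exonic bases with Exosc9 on the opposite strand, and whether the authors' counting used strand is not given in the sources used here. Exosc9 was at 24.5 to 27.0 TPM in uninduced and 14.3 to 20.1 TPM in induced libraries.

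Ccnb1 (ENSMUSG00000041431, chr13:100778650-100786570, minus strand) encodes cyclin B1, the main partner of Cdk1 in mitosis. It was at 7.63, 13.4 and 6.37 TPM in uninduced and 0.602, 0.485 and 1.00 TPM in induced libraries. All 3 induced libraries sat near the lower limit of the expression filter. Mean TPM was 9.12 ± 3.74 and 0.696 ± 0.271 (SD, n = 3 each), 13.1-fold lower, with a log2 change of -2.53 (SE 0.40, adjusted p 0.00493), and the call held in each of the 17 alternatives in which it was tested. Transcripts of 4 pseudogenes align to Ccnb1 over 1272 to 1294 bases at 94.4 to 99.2% identity, so reads could be split among them. These copies summed to 6.42, 4.97 and 2.34 TPM in uninduced and 0.114, 0 and 0.1001 TPM in induced libraries. With the copies added to Ccnb1, a step chosen after seeing the data, the log2 change was -3.01 (adjusted p 0.00225).

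Ccnb2 (ENSMUSG00000032218, chr9:70407692-70421547, minus strand), which encodes cyclin B2, was at 19.5, 28.4 and 9.43 TPM in uninduced and 3.87, 1.53 and 2.34 TPM in induced libraries. Uninduced libraries spread widely, yet all exceeded the induced ones. Mean TPM was 19.1 ± 9.51 and 2.58 ± 1.19 (SD, n = 3 each), 7.41-fold lower, and the log2 change was -2.42 (SE 0.43, adjusted p 0.00786). The call was lost in 1 alternative, without the expression filter (adjusted p 0.0542). The A and B type cyclins together made up 39.8, 39.9 and 30.8% of the summed TPM of the 10 members in uninduced libraries and 13.3, 15.3 and 14.5% in induced libraries.

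Of the E type cyclins, which activate Cdk2 before S phase, Ccne1 (ENSMUSG00000002068, chr7:38097984-38107534, minus strand) was at 5.28, 6.06 and 3.42 TPM in uninduced and 0.492, 0.457 and 0 TPM in induced libraries. No induced library reached 1 TPM. The log2 change was -2.16 (SE 0.42, adjusted p 0.0121), and the call was lost without uninduced replicate 2 (adjusted p 0.0505). Ccne2 (ENSMUSG00000028212, chr4:11191351-11204779, plus strand) was at 4.44, 2.74 and 8.43 TPM in uninduced and 2.99, 0 and 0 TPM in induced libraries. Its groups overlapped, since induced replicate 1 exceeded uninduced replicate 2. The log2 change of -1.86 (SE 0.61) did not pass (adjusted p 0.0794), with a 95% interval from -3.23 to -0.49, and it passed only when induced replicate 1 was left out (-2.53, adjusted p 0.0335). Ccne2 shares 609 exonic bases with Ints8 on the opposite strand, which was at 4.77 to 16.6 TPM in uninduced and 5.33 to 8.56 TPM in induced libraries.

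The log2 changes of both kinases were smaller in value than those of the A and B type cyclins, and neither passed the test. Cdk1 (ENSMUSG00000019942, chr10:69335146-69352938, minus strand), the mitotic kinase, was at 10.5, 18.9 and 6.80 TPM in uninduced and 3.72, 2.11 and 5.23 TPM in induced libraries. The groups did not overlap, but the lowest uninduced and the highest induced library were close. Mean TPM was 12.1 ± 6.21 and 3.69 ± 1.56 (SD, n = 3 each), and the log2 change of -1.43 (SE 0.42) did not pass (adjusted p 0.0535). It passed at a mean of at least 5 TPM (adjusted p 0.0473), a filter that Cdk1 reached only through the uninduced group. It also passed without uninduced replicate 3 (-1.75, adjusted p 0.0398), and its adjusted p was 0.133 after median-of-ratios scaling.

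Cdk2 (ENSMUSG00000025358, chr10:128697939-128705031, minus strand), the kinase of cyclins E and A, was at 26.5, 42.4 and 24.0 TPM in uninduced and 20.1, 12.3 and 20.6 TPM in induced libraries. It was the highest member in every library. Mean TPM was 31.0 ± 9.995 and 17.6 ± 4.65 (SD, n = 3 each), and the log2 change of -0.77 (SE 0.29, 95% interval -1.42 to -0.12) did not pass (adjusted p 0.119) and passed in none of the 18 alternatives. After median-of-ratios scaling the change was -0.38 (adjusted p 0.420) and the groups overlapped. Together the kinases made up 33.1, 41.4 and 35.1% of the members' summed TPM in uninduced libraries and 60.02, 55.6 and 55.1% in induced libraries. Their own summed TPM was lower in value in induced libraries (43.0 ± 16.1 and 21.3 ± 6.08, SD, n = 3 each). The larger share stands against a smaller total of the 10 members, 87.6 to 148 TPM in uninduced and 25.9 to 46.8 TPM in induced libraries.

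Cdc25a (ENSMUSG00000032477, chr9:109875579-109893895, plus strand), which activates Cdk2 at the start of S phase and also acts in mitosis, was at 13.9, 15.1 and 8.41 TPM in uninduced and 2.18, 3.36 and 4.97 TPM in induced libraries. The groups did not overlap. Mean TPM was 12.5 ± 3.57 and 3.504 ± 1.396 (SD, n = 3 each), 3.56-fold lower, with a log2 change of -1.59 (SE 0.36, adjusted p 0.0218). This call depended on the setting. It was lost after median-of-ratios scaling (-1.25, adjusted p 0.0610) and without uninduced replicate 1, uninduced replicate 2, induced replicate 1 or induced replicate 2 (adjusted p 0.0703 to 0.0759).

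Cdc25b (ENSMUSG00000027330, chr2:131186949-131198497, plus strand), which starts Cdk1 activation at mitotic entry, was at 4.74, 2.83 and 7.65 TPM in uninduced and 4.61, 3.75 and 9.26 TPM in induced libraries. The groups overlapped across most of their range. The log2 change was 0.17 (SE 0.43, 95% interval -0.77 to 1.12, adjusted p 0.826), and its sign turned without uninduced replicate 2 (-0.12) or induced replicate 3 (-0.16). Cdc25c (ENSMUSG00000044201), which amplifies Cdk1 activity at mitosis, was at 2.04, 0.970 and 1.92 TPM in uninduced and 0.304, 0 and 0 TPM in induced libraries. Without the expression filter its log2 change was -1.25 (adjusted p 0.0642). It shares 623 exonic bases with Gm3550 on the opposite strand, which stayed under 0.5 TPM in each library.

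**Figure D2:**
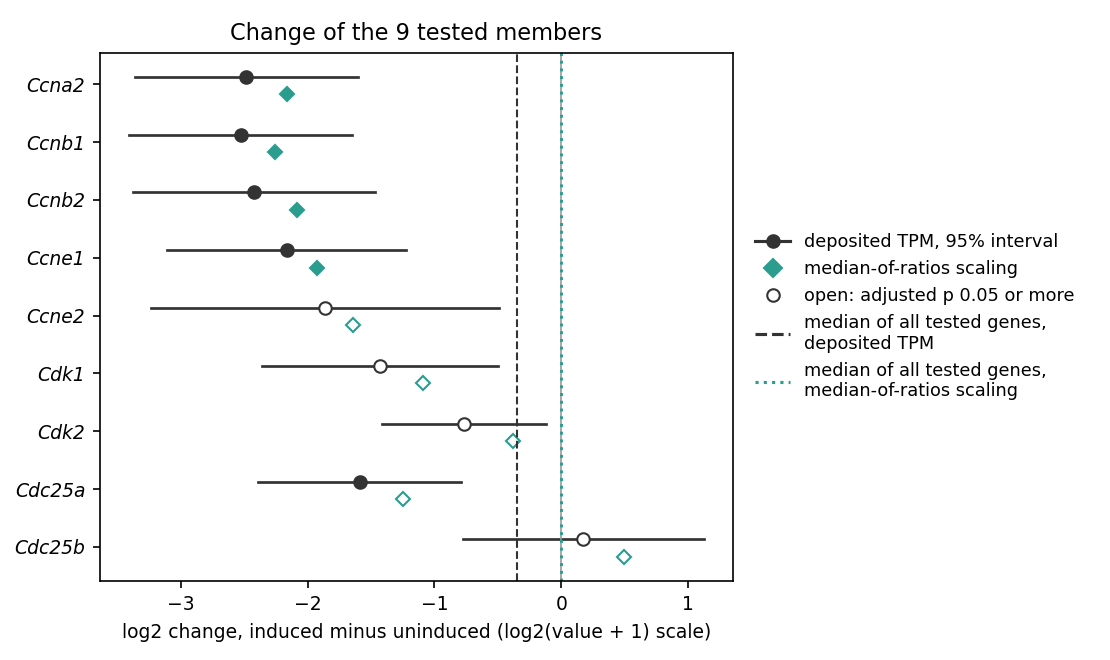
Log2 change (induced minus uninduced) of the 9 tested members on the deposited scale with 95% intervals (circles) and after median-of-ratios scaling (diamonds); filled symbols have an adjusted p under 0.05, and broken lines mark the medians of all tested genes, -0.35 and -0.0029. The changes run from -2.53 for Ccnb1 to 0.17 for Cdc25b, and Cdc25a is filled on the deposited scale only.

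The order of the members differed between the groups. By mean TPM the uninduced order was Cdk2, Ccnb2, Ccna2, Cdc25a, Cdk1, Ccnb1, Ccne2, Cdc25b, Ccne1 and Cdc25c, and only the ranges of the last pair of neighbours did not overlap. In induced cells Cdk2 was followed by Cdc25b at 5.87 ± 2.96 TPM (SD, n = 3), without overlap, while all later neighbours overlapped. Cdc25b was thus ranked 8 in uninduced and 2 in induced cells while the ranges of its own level overlapped. Libraries of a group also differed across members. Uninduced replicate 3 was the lowest of its group for 7 members and the highest for Ccne2 and Cdc25b. Uninduced replicate 2 was the highest for 6 members and the lowest for Ccne2, Cdc25b and Cdc25c. Protein-coding genes took the largest share of TPM in uninduced replicate 2 (32.9%) and the smallest in uninduced replicate 3 (26.6%). After median-of-ratios scaling replicate 3 was still the lowest for 6 members.

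Ratios between members within a library do not depend on how the library is scaled, apart from the pseudocount, and 7 were compared. The log2 ratio of Cdk1 to Cdk2 was -1.25, -1.12 and -1.68 in uninduced and -2.16, -2.09 and -1.79 in induced libraries, a difference of -0.66. That of Cdc25b to Cdc25a was -1.37, -2.07 and -0.12 in uninduced and 0.82, 0.12 and 0.78 in induced libraries, a difference of 1.76. That of Cdc25c to Cdc25b was -0.92, -0.96 and -1.57 against -2.11, -2.25 and -3.36, a difference of -1.42. For these 3 ratios the groups did not overlap. By exact permutation (two-sided) each gave p = 0.1, which is the lowest value possible with 3 libraries a group, and 0.233 after adjustment over the 7 ratios. The ratio of Ccnb1 to Ccnb2 differed by -0.11 and that of Ccna2 to Ccnb1 by 0.05, with overlapping groups (exact permutation p 0.8 and 0.9). Ccne1 to Ccne2 (-0.30) and Ccna2 to Ccne2 (-0.62) also overlapped (exact permutation p 0.7 and 0.6). No ratio passed, and no ratio could have passed in this design. The sign of each of these 4 overlapping ratios turned under some alternative.

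**Figure D3:**
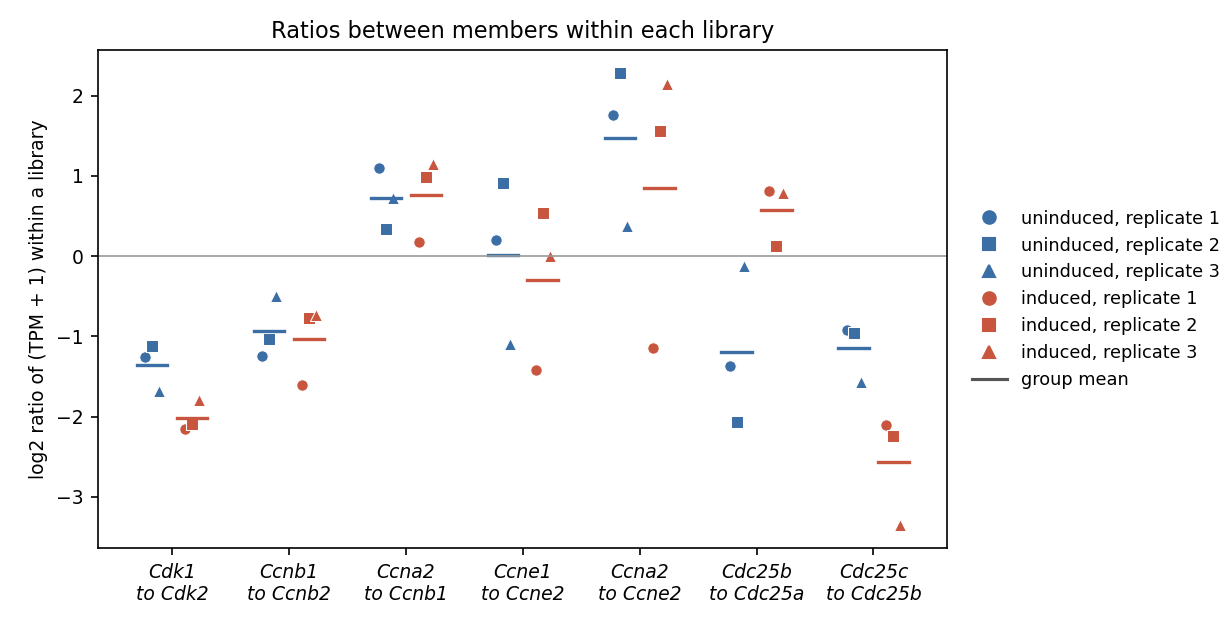
Log2 ratio of (TPM + 1) between pairs of members within each library, with uninduced libraries in blue and induced in red, a marker shape per replicate and a bar at the group mean. The groups are apart for Cdk1 to Cdk2, Cdc25b to Cdc25a and Cdc25c to Cdc25b, and overlap for the other 4 ratios.

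Genes that act with the members were taken from 7 lists of 87 genes, of which 82 were tested, and 20 fell and 0 rose on the deposited scale (7 and 0 after median-of-ratios scaling), where 10.2% and 3.21% of all tested genes were called lower on these scales. After that scaling every list median lay closer to 0 or turned sign, and those values are given beside the deposited ones. Chek1 and Mybl2 averaged under 1 TPM in induced libraries and reached the filter only through the uninduced group, as Ccnb1 and Ccne1 did. Of the G1 cyclins and Cdks, which act before the E type cyclins, 4 of 5 fell, at a median of -1.11 (-0.71 after scaling). Ccnd2 fell from 86.03 ± 10.04 to 40.0 ± 1.19 TPM (log2 change -1.08, adjusted p 0.00537) and Cdk4 from 94.3 ± 6.65 to 43.5 ± 6.26 TPM (-1.11, adjusted p 0.00565; SD, n = 3 each). Ccnd1 (-1.55, adjusted p 0.0227) and Ccnd3 (-1.16, adjusted p 0.0252) passed on the deposited scale and not after scaling (0.0745 and 0.138).

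Of 11 genes of the MuvB, DREAM and FoxM1 machinery, which transcribes A and B type cyclins and represses them in quiescence, 5 fell (2 after scaling), at a list median of -0.82 (-0.43 after scaling), where 10.2% and 3.21% of all tested genes were called lower. Mybl2, the B-Myb subunit that joins MuvB in cycling cells, was at 11.8, 13.2 and 6.57 TPM in uninduced and 0, 0.116 and 1.77 TPM in induced libraries (log2 change -2.93, adjusted p 0.00606). Tfdp1, the DNA-binding partner of E2F factors, had a mean of 71.0 ± 17.9 TPM in uninduced and 15.8 ± 3.23 TPM in induced libraries (SD, n = 3 each), and it fell by 2.09 on the log2 scale (adjusted p 0.00170). Foxm1 (-1.75, adjusted p 0.0255) and Rbbp4, a histone-binding subunit of MuvB (-0.82, adjusted p 0.0284), were lost after scaling (0.0738 and 0.198). Only Mybl2 and Tfdp1 of this list passed after scaling.

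Among 6 inhibitory kinases and checkpoint genes 2 fell, at a list median of -0.86 (-0.50 after scaling). As the background for the lists in this paragraph, 10.2% of all tested genes were called lower (3.21% after scaling), at an overall median of -0.35 (-0.0029 after scaling). Chek1, the checkpoint kinase that restrains Cdc25, was at 7.77, 6.84 and 5.92 TPM in uninduced and 0.870, 0.328 and 0.104 TPM in induced libraries (log2 change -2.48, adjusted p 0.00527). Pkmyt1, which encodes the Cdk1-inhibiting kinase Myt1, changed by -2.29 (adjusted p 0.0158), while Wee1 did not pass (-0.58, adjusted p 0.143). Of 5 Cdk subunits and activating kinase genes (median -0.66, and -0.28 after scaling), Cks1b fell (-2.18, adjusted p 0.0287, and 0.0865 after scaling) and its paralog Cks2 did not pass (-1.11, adjusted p 0.0736). Of 5 tested mitotic entry genes (median -0.86, and -0.50 after scaling) only Plk1, the polo-like kinase, fell (-1.89, adjusted p 0.0295, and 0.0770 after scaling).

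The cyclin degradation list, which holds the anaphase-promoting complex and SCF ligases that destroy cyclins, had 6 of 26 tested genes called lower, at a median of -0.63, where 10.2% of all tested genes were called lower and the median of all was -0.35. After scaling 1 of 26 was called and the median was -0.26, where 3.21% of all tested genes were called lower. Ube2c, the conjugating enzyme of the anaphase-promoting complex, averaged 17.2 ± 2.14 TPM in uninduced and 4.48 ± 1.62 TPM in induced libraries (SD, n = 3 each). It fell by 1.77 on the log2 scale (adjusted p 0.00684) and was that 1 gene called after scaling (adjusted p 0.0217). Cdc20, an activator of the anaphase-promoting complex (-1.67, adjusted p 0.0257), was lost after scaling. So were the complex's subunits Anapc15 (-1.396, adjusted p 0.0218) and Cdc23 (-1.33, adjusted p 0.0180). Skp2, an SCF subunit, was listed at 0 in all 6 libraries. In the last list, 1 of 24 tested transcriptional and other cyclins and Cdks was called, where 10.2% of all tested genes were called lower. This was Ccnl1, a cyclin of RNA processing (-0.73, adjusted p 0.0181, and 0.188 after scaling), and the list median was -0.16, where that of all tested genes was -0.35. After scaling the list median turned to 0.22, where that of all tested genes was -0.0029. The difference between lists was not tested.

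**Figure D4:**
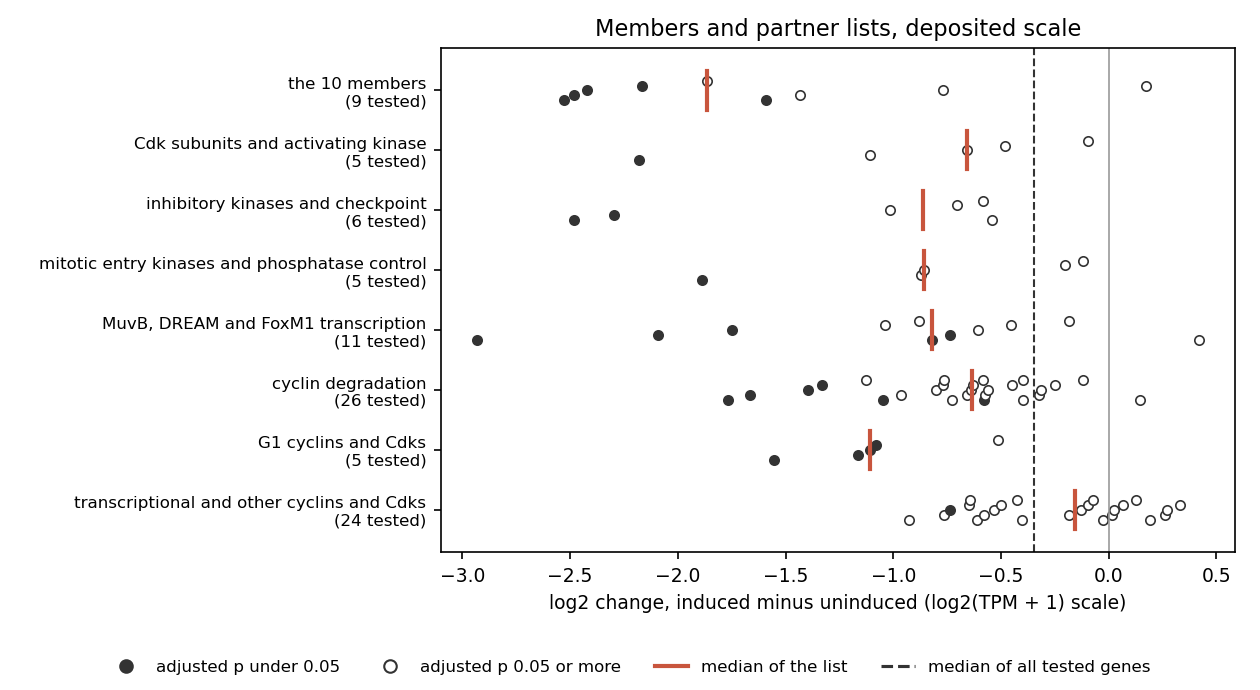
Log2 change (induced minus uninduced, log2(TPM + 1) scale) of each tested gene of the members and of the 7 partner lists, with filled points at an adjusted p under 0.05, red bars at list medians and a broken line at the median of all tested genes (-0.35). The list medians run from -1.86 for the members to -0.16 for transcriptional and other cyclins and Cdks (0.22 after median-of-ratios scaling).

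Of the 17 partner genes named with a call, 6 (Chek1, Mybl2, Tfdp1, Ube2c, Ccnd2 and Cdk4) were called whichever library was left out, and for Chek1 and Mybl2 the way they reached the filter bears on this too. The other 11 were lost without at least 1 library. Cks1b was called only without induced replicate 1, and Rbbp4 in none of the 6. Plk1, Foxm1, Ccnd1 and Ccnd3 were lost without uninduced replicate 1 or 2 or induced replicate 2 or 3, Cdc20 without uninduced replicate 2 or 3 or induced replicate 2 or 3, and Anapc15 without uninduced replicate 1 or 2 or induced replicate 1 or 2. Pkmyt1 was lost without uninduced replicate 1 or induced replicate 1 or 2, Cdc23 without uninduced replicate 1 or induced replicate 2, and Ccnl1 without uninduced replicate 1 or induced replicate 2 or 3. Over these 11 genes the highest adjusted p ran from 0.0654 for Pkmyt1 to 0.107 for Plk1.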

How the data were processed

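Expression was measured by total RNA sequencing of 6 libraries, prepared with a stranded pico-input kit per the labels' protocols. The authors deposited TPM, 1 column per library. Per the submitters' processing notes, HISAT2, StringTie and DESeq2 were among the tools and GRCm38 was the build. Versions, annotation and filters are not given in the sources used here. The table has 60496 rows, which were summed to 55471 gene IDs. TPM keeps no depth, so no counting interval is given.

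log2(TPM + 1) was tested with limma 3.58.1 in R 4.3.3 (two-sided, variance trend) over the 13470 genes that averaged 1 TPM or more, with Benjamini-Hochberg adjustment over all of them and a threshold of 0.05. Groups came from the titles. Ratios were tested by exact permutation. On simulated data of 13470 genes, 94% of genes changed by 2 log2 units and 26% of those changed by 1 were recovered. Of the calls, 5.51% were false. The changed genes were drawn only from those with a higher mean log2(TPM + 1), and the noise was normal, without zeros. These recovery shares therefore do not cover genes as low as Ccnb1, Ccne1 and Ccne2. All 10 members are reported, with up to 4 called genes of each partner list, those with the largest change. Members and lists were chosen with earlier results of these data known. Loci come from GENCODE M21, promoters from RefSeq (GRCm38.p6; Ccna2, Ccne2 and Cdc25c not printed or searched), and similar transcripts (at least 100 aligned bases, 90% identity) from blastn 2.17.0.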

Additional observations from a re-analysis of the deposited data

How the results depend on the processing

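The gene results were recomputed under 18 alternatives, of which adding near copies to Ccnb1 was chosen after seeing the data. The 5 members called became 3 without the expression filter and, leaving out 1 library at a time, 3 to 6. The 1549 genes called overall became 752 without the filter, 814 under median-of-ratios scaling (432 lower, 382 higher), 815 under quantile normalization, 886 after rescaling to nuclear protein-coding genes, 767 without the variance trend, and 611 to 1276 with 1 library removed. The 20 partner genes called became 9, 7, 7, 7 and 11 in those 5 settings, and 6 to 18 with 1 library removed. With the replicate block 902 genes, 5 members and 13 partner genes were called. No label says that same-numbered libraries are paired. Their deviations from the group means correlated at 0.0215, -0.0152 and 0.0172, and those of differently numbered libraries at -0.0402 to 0.0224. With 3 libraries a group, these correlations cannot show whether libraries were paired. For counts that moved, the cause was not tested. The scalings removed the shift in the median, and rescaling to nuclear protein-coding genes also changed the genes tested from 13470 to 10562.

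For single named genes, leaving out libraries aside, 251 results kept their side of the threshold, 54 became weaker, 1 stronger and 0 reversed. Cdc25b (0.17) reversed to -0.12 without uninduced replicate 2 and -0.16 without induced replicate 3, and leaving out single libraries gave up to 0.47. Over all alternatives its highest value was 0.61, after rescaling to nuclear protein-coding genes. Ccnb1 to Ccnb2 reversed to 0.32 at a pseudocount of 5 and spanned -0.27 to 0.18 with single libraries removed. Ccna2 to Ccnb1 reversed to -0.25 at a pseudocount of 5 and ranged from -0.14 to 0.34. Ccne1 to Ccne2 reversed to 0.0038 and Ccna2 to Ccne2 to 0.92 at a pseudocount of 0.1, and they ranged from -0.85 to 0.26 and -1.27 to 0.38. The other 3 ratios kept their sign under all alternatives run. Without depth, levels under about 1 TPM, where most induced values of Ccnb1, Ccne1 and Cdc25c lie, cannot be given a counting error.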
